A study of Mus musculus with 8 samples.

Results

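The macrophage genes of newborn muscle described here are 10 of the 23336 genes in the count table: Cd209f, Clec10a, Chi3l3, Mrc1, Csf1r, Cd163, Emr1, Lyz2, C1qa and Lyve1. They were matched by symbol to the rows of the table. They were chosen by name with the log2 fold changes and adjusted p-values of this same comparison already known, so how they differ between the groups is described, with no test. All 10 passed the filter on low counts. The samples were 4 libraries from ΔDMR1-U2 mice and 4 from wild-type mice, all skeletal muscle of female C57BL/6 animals at postnatal day 2. The ΔDMR1-U2 animals, called mutant below, lack a stretch of the imprinted Igf2 locus, which encodes a fetal growth factor. The labels do not say which muscle was taken, which parent passed on the deletion, whether litters were shared, or how libraries 1A and 1B relate. Whole muscle was sequenced, not sorted macrophages.

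Macrophages are phagocytes that depend on signals through the Csf1 receptor. In muscle they sit between the fibres and around vessels, clear debris and haemoglobin, and recognise sugars and microbes through lectins. Resident macrophages of the alternatively activated kind carry scavenger and lectin receptors such as the mannose receptor, CD163 and CD301, while inflammatory macrophages derived from monocytes are known for nitric oxide synthase and cytokines.

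Libraries held 16084413 to 26913636 counts. Igf2as, the gene antisense to Igf2, had 100 to 122 counts in mutant libraries and 1113 to 1868 in wild-type ones, with no library of one label inside the range of the other. Values are given as CPM, the usual unit of counts relative to the scaled size of each library. Mutant library 1A is labelled female, yet Xist, transcribed from the inactive X chromosome, reached 49 counts or 2.50 CPM there, while the remaining 7 libraries had 1270 to 1895 CPM. Mutant library 1B stood at the end of the first principal component, at -41.7 against -16.9 to 23.9. The main differences are also given without these libraries. Markers of skeletal muscle fibres summed to 163800 to 183300 CPM in the mutants and 178000 to 209600 CPM in wild-type.

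Compared per kilobase of annotated exon, the levels of the 10 genes covered a wide range. Lyz2, which encodes the lysozyme of macrophages and neutrophils, averaged 30.6 CPM per kilobase over the 8 libraries, and Mrc1, the mannose receptor CD206, averaged 25.5 CPM per kilobase. Lyve1, a hyaluronan receptor of lymphatic vessels and of some resident macrophages, was at 17.4 CPM per kilobase. C1qa, a chain of the first complement component, was at 17.1 CPM per kilobase. Csf1r, the receptor for Csf1 and Il34, followed at 9.77 CPM per kilobase, Emr1, which encodes the macrophage antigen F4/80, at 5.45, and Cd163, the scavenger receptor for haemoglobin bound to haptoglobin, at 4.196. In wild-type the per-kilobase ranges overlapped between Lyz2 and Mrc1 and between Lyve1 and C1qa, so those pairs cannot be ordered, and in the mutants Emr1 and Cd163 overlapped as well.

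The 3 remaining genes were scarce, and their order depended on the genotype. In wild-type, Clec10a lay between 0.805 and 1.26 CPM per kilobase, Cd209f between 0.546 and 0.833, and Chi3l3 between 0.199 and 0.520. In the mutants, Chi3l3 was the highest of the 3, at 1.28 to 3.86 CPM per kilobase, against 0.460 to 0.687 for Clec10a and 0.0268 to 0.248 for Cd209f. These are also the 3 genes of the set in which no mutant library overlapped a wild-type library, where 12.8% of all 15241 tested genes had groups that did not overlap. The same 3 had an adjusted p under 0.05 in the edgeR fit over all genes, where 1.13% of genes did. Because the set was chosen with this comparison in view, nothing is read from either count. The calls depended on which libraries were used: the number under the threshold ranged from 0 to 3 over the 8 fits without 1 library, and was 0 without mutant libraries 1A and 1B together. The number called over all genes moved in these fits as well. It was 172 with all 8 libraries and 16 without mutant libraries 1A and 1B, so this loss of calls is not particular to these genes.

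**Figure D1:**
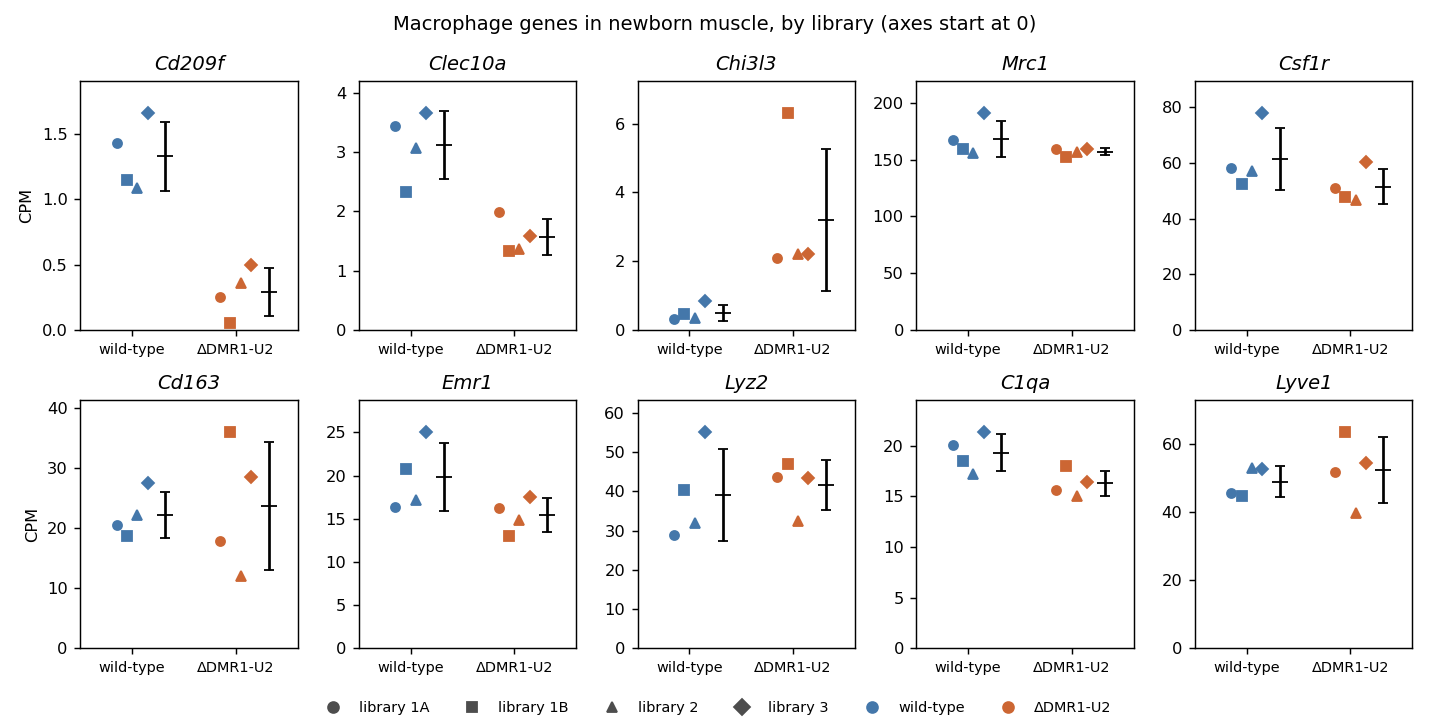
CPM of the 10 macrophage genes in each library, wild-type in blue and ΔDMR1-U2 in orange, with marker shapes for libraries 1A, 1B, 2 and 3 and bars for the mean ± SD (n = 4); each axis starts at 0. The groups stand apart in Cd209f, Clec10a and Chi3l3 and overlap in the other 7 genes.

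Cd209f encodes a C-type lectin of the CD209 (SIGN) family, whose members bind sugars on microbes. The gene is on chromosome 8 from 4102787 to 4105835 (minus strand) of mm10, with no annotated gene on the opposite strand. Wild-type libraries 1A, 1B, 2 and 3 had 22, 30, 29 and 39 counts, and the mutant ones 5, 1, 6 and 10. Every mutant library was lower than every wild-type library, and library 1B was the lowest. The mean was 0.290 ± 0.185 CPM in the mutants and 1.33 ± 0.264 CPM in wild-type (SD, n = 4 each), a log2 fold change of -2.18 ± 0.39 (SE, the standard error). Summed over libraries, 22 counts stood against 120, a 4.48-fold difference with an exact 95% interval of 2.83 to 7.41 for counting error only. Without mutant library 1B the difference was -1.83, without library 1A -2.11, without both -1.61, and without library 3 it was -2.59.

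Clec10a encodes the galactose-binding lectin CD301a of macrophages and some dendritic cells. Its position is chromosome 11 from 70156197 to 70170834 (plus strand). Wild-type libraries 1A, 1B, 2 and 3 had 53, 61, 82 and 86 counts, and the mutant ones 39, 25, 23 and 32. The lowest wild-type library, 1B at 2.33 CPM, was above the highest mutant library, 1A at 1.99 CPM. The means were 1.57 ± 0.302 and 3.12 ± 0.579 CPM in the mutants and wild-type, a log2 fold change of -0.98 ± 0.20 (SE), which stayed between -1.11 and -0.89 when 1 library was left out and was -1.07 without mutant libraries 1A and 1B. Dendritic cell markers gave 0 of 8 tested genes called by edgeR, 0 by DESeq2 and 0 with an unadjusted p under 0.05. Their summed level was 24.9 to 32.01 CPM in the mutants and 24.3 to 30.0 CPM in wild-type, with Flt3, Xcr1, Siglech and Ccr7 below the filter. Zbtb46 weighs most in this sum, at a mean of 11.8 CPM in the mutants and 13.2 CPM in wild-type. The part of dendritic cells in the Clec10a level was not tested.

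Chi3l3, now named Chil3, encodes Ym1, a secreted chitinase-like protein made by alternatively activated macrophages and also by neutrophils and their precursors. Its position is chromosome 3 from 106147554 to 106167564 (minus strand). It went the other way from both lectins, with 5, 12, 9 and 20 counts in wild-type libraries 1A, 1B, 2 and 3 and 41, 118, 37 and 45 in the mutants. Library 1B was far above the other mutant libraries, at 6.30 CPM against 2.09 to 2.22 CPM, and these in turn were above the highest wild-type library at 0.849 CPM. The means were 3.20 ± 2.06 CPM in the mutants and 0.492 ± 0.246 CPM in wild-type. The log2 fold change was 2.68 ± 0.46 (SE), with 2.12 when library 1B was left out, 2.85 without library 1A and 2.14 without both.

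The authors' deposited table gives the ratio as wild-type over mutant, at 4.59 for Cd209f, 1.99 for Clec10a and 0.153 for Chi3l3.

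**Figure D2:**
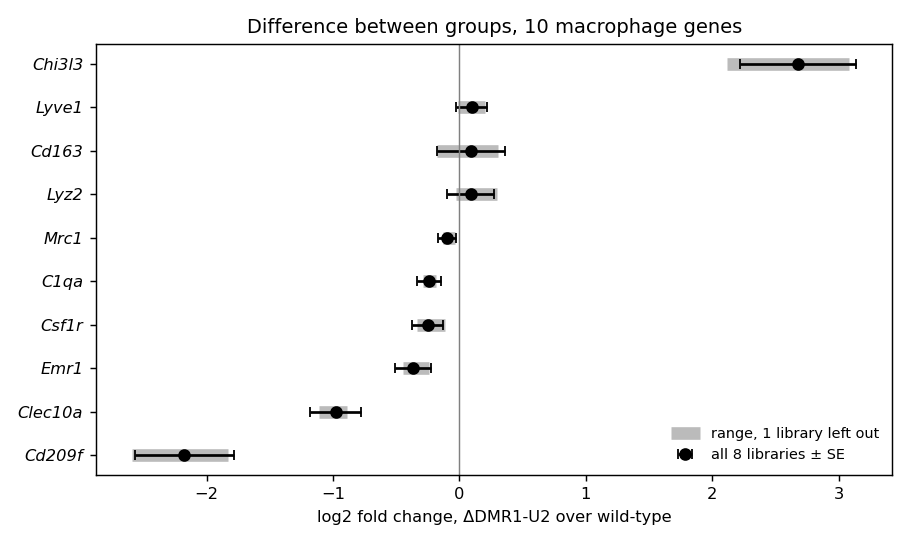
Log2 fold change of ΔDMR1-U2 over wild-type for the 10 genes, with points and bars for the value ± SE from all 8 libraries and grey bands for the range when 1 library is left out. Cd209f at -2.18 and Chi3l3 at 2.68 lie at opposite ends, and the bands of Cd163, Lyve1 and Lyz2 cross 0.

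Promoter windows, 250 bases before to 50 bases after the annotated start, were found in RefSeq (build GRCm38.p6) for 5 of the 10 genes. Those of Cd209f and Chi3l3, the genes of the set with the most negative and the most positive log2 fold change, and of Mrc1, the gene with the smallest spread among mutant libraries, are shown so that their letters can be compared. Capitals mark the 6-letter core GAGGAA, bound by PU.1 and related factors, and the TATA-box letters TATAAA, each searched on both strands.
Cd209f, chr8:4105715-4106014, minus strand: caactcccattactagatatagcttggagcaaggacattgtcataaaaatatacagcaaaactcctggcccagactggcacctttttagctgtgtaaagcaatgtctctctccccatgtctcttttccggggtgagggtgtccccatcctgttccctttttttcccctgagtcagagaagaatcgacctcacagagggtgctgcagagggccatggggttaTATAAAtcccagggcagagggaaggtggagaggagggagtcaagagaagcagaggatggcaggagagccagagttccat
Chi3l3, chr3:106167515-106167814, minus strand: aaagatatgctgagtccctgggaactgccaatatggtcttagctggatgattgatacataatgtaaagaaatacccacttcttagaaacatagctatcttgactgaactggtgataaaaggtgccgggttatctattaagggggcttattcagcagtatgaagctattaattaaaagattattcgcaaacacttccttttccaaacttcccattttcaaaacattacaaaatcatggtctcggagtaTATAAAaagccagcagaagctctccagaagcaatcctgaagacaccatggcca
Mrc1, chr2:14229164-14229463, plus strand: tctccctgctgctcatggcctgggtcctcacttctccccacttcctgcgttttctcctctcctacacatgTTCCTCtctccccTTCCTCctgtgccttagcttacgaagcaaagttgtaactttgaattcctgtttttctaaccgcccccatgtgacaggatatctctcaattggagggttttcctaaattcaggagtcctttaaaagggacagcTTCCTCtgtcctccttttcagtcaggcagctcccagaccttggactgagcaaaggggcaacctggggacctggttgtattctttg
The Cd209f and Chi3l3 windows each held TATAAA 1 time and GAGGAA 0 times, while the Mrc1 window held GAGGAA 3 times and TATAAA 0 times. In Cd209f the TATAAA begins at position -29 from the start annotated in RefSeq, and in Chi3l3 at position -3. For Cd209f that start lies inside the gene position given above, which is from GENCODE, so the annotations differ there. Over all 32851 promoter windows of this length, 28.3% held GAGGAA and 13.6% held TATAAA. The windows of Cd163 and Lyz2 held neither. The letters of STAT6 sites, TTC and GAA spaced by 4 bases, found in 7.0% of all windows, and TTGCNNAA of C/EBP sites, found in 10.8%, were in none of these 5 windows.

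Reads from near-identical relatives could be split or lost in counting, and this differed between the 3 genes. Of the 50-base stretches in annotated Cd209f transcripts, 29.8% also occur in Cd209g, which had 0 to 3 counts per library. Of the other members of that family, Cd209e had 0 counts in all libraries, Cd209a, Cd209b and Cd209d had at most 3, and Cd209c had 7 to 18 counts per library and a log2 fold change of -0.36 (SE 0.27, adjusted p = 0.507, edgeR). For Clec10a, 9.02% of stretches occur in another gene, mostly its neighbour Mgl2, which encodes the sister lectin CD301b. Mgl2 had a log2 fold change of -0.33 (SE 0.13, adjusted p = 0.189, edgeR), with means of 2.50 ± 0.166 CPM in the mutants and 3.16 ± 0.211 CPM in wild-type. For Chi3l3, 26.9% of stretches occur elsewhere, most in Chil4, listed in the table as Chi3l4 with 0 counts in every library. Lyz2 shares 15.4% of its stretches with Lyz1, which had at most 4 counts in a library.

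The receptors Mrc1 and Csf1r overlapped between the groups. Mrc1, on chromosome 2 from 14229392 to 14332057 (plus strand), was at 159, 152, 157 and 159 CPM in mutant libraries 1A, 1B, 2 and 3 and at 167, 159, 156 and 191 CPM in wild-type. Its 4 mutant values varied by a coefficient of variation of only 2.00%, and 3 of them lay within the wild-type range, library 1B below it. The log2 fold change was -0.10 ± 0.07 (SE), and -0.04 without wild-type library 3. Csf1r was at 50.9, 47.8, 46.7 and 60.4 CPM in the mutants and 58.1, 52.5, 56.9 and 77.8 CPM in wild-type, a log2 fold change of -0.25 ± 0.12 (SE). Here too the groups overlapped, and wild-type library 3 was the highest, without which the log2 fold change was -0.12. Csf1r overlaps Hmgxb3 on the opposite strand, and whether reads were counted by strand is not stated in the labels.

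Emr1, now Adgre1, on chromosome 17 from 57358691 to 57483527 (plus strand), was at 16.3, 12.96, 14.9 and 17.6 CPM in mutant libraries 1A, 1B, 2 and 3 and at 16.4, 20.8, 17.2 and 25.0 CPM in wild-type. Its log2 fold change was -0.37 ± 0.14 (SE), and -0.24 without wild-type library 3. C1qa, on chromosome 4 from 136895917 to 136898803 (minus strand), was at 15.7, 18.0, 15.0 and 16.4 CPM in the mutants and 20.1, 18.5, 17.2 and 21.4 CPM in wild-type, a log2 fold change of -0.24 ± 0.09 (SE). The overlap in C1qa came from mutant library 1B and wild-type library 2. The other chains, C1qb and C1qc, had log2 fold changes of -0.05 (SE 0.12, adjusted p = 0.844) and -0.16 (SE 0.14, adjusted p = 0.531, edgeR).

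Cd163 differed more among mutant animals than between the genotypes. The gene is on chromosome 6 from 124304656 to 124330527 (plus strand). It was at 17.9, 36.0, 12.1 and 28.6 CPM in mutant libraries 1A, 1B, 2 and 3 and at 20.4, 18.7, 22.2 and 27.4 CPM in wild-type. The highest and the lowest of all 8 values were both from mutants, with coefficients of variation of 45.2% in the mutants and 17.0% in wild-type. The log2 fold change was 0.09 ± 0.27 (SE), and it ran from -0.18 without mutant library 1B to 0.30 without library 2, with -0.12 without libraries 1A and 1B together.

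Lyve1, on chromosome 7 from 110850607 to 110863239 (minus strand), was at 51.8, 63.6, 39.9 and 54.4 CPM in the mutants and 45.7, 44.7, 53.0 and 52.8 CPM in wild-type libraries 1A, 1B, 2 and 3. The wild-type values all lay within the mutant range, and the log2 fold change was 0.10 ± 0.12 (SE). It was -0.01 without mutant library 1B and -0.06 without both 1A and 1B. Lyve1 also marks lymphatic vessels, whose other markers summed to 151 to 156 CPM in the mutants and 128 to 136 CPM in wild-type. Of 6 tested lymphatic markers, 1 rose and 0 fell: Reln, reelin, with a log2 fold change of 0.40 ± 0.08 SE (adjusted p = 0.0446, edgeR). Its adjusted p was 0.0306 to 0.114 when 1 library was left out. The median of the list was 0.26, and 0.09 without mutant libraries 1A and 1B. Reln was the most abundant of the list, at a mean of 71.2 CPM in the mutants and 53.8 CPM in wild-type, and weighs most in the sums. Prox1, the transcription factor that defines these vessels, had 0.11 (adjusted p = 0.583, edgeR), and Ccl21a was at 0 in every library. Flt4 had 0.02, Pdpn -0.10, Stab2 0.63 and Mmrn1 0.59 (adjusted p = 0.906, 0.473, 0.140 and 0.632, edgeR). Mmrn1 had 1 count in mutant library 3 and 131 to 217 in the other mutant libraries. The part of lymphatic vessels in the Lyve1 level was not tested.

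Lyz2, on chromosome 10 from 117277331 to 117282321 (minus strand), was at 43.6, 47.1, 32.3 and 43.3 CPM in mutant libraries 1A, 1B, 2 and 3 and at 28.8, 40.2, 31.97 and 55.1 CPM in wild-type. The groups overlapped over most of their range, and wild-type held both the lowest and the highest library. The log2 fold change was 0.09 ± 0.19 (SE), from -0.03 without wild-type library 1A to 0.30 without wild-type library 3, and -0.05 without mutant libraries 1A and 1B together.

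In whole muscle, fewer macrophages and less RNA of a gene per macrophage cannot be told apart from a CPM value. Counts were also set against Csf1r in the same library, which describes the genes relative to each other and does not separate those cases. Per 100 Csf1r counts, Cd209f had 2.46, 2.19, 1.91 and 2.13 counts in wild-type libraries 1A, 1B, 2 and 3 and 0.501, 0.112, 0.766 and 0.816 in the mutants. Chi3l3 had 0.558, 0.875, 0.591 and 1.09 in wild-type and 4.11, 13.2, 4.72 and 3.67 in the mutants. Clec10a had 5.11 ± 0.667 in wild-type and 3.06 ± 0.581 in the mutants. The groups did not overlap for these 3 genes on this scale, and since the genes were chosen with this comparison known, nothing is read from that.

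The other 6 genes overlapped when set against Csf1r. C1qa was at 31.9 ± 4.33 counts per 100 Csf1r counts in the mutants and 31.9 ± 3.69 in wild-type, and Emr1 at 30.0 ± 2.34 and 32.6 ± 4.998. Against Mrc1, all 3 genes again did not overlap, with Clec10a at 0.874 to 1.25 counts per 100 Mrc1 counts in the mutants and 1.47 to 2.06 in wild-type. Against Emr1 or C1qa, Cd209f and Chi3l3 did not overlap between the groups, while Clec10a did. Per 100 C1qa counts, Clec10a reached 12.7 in mutant library 1A and went down to 12.6 in wild-type library 1B. The share of all genes without overlap was not computed on any of these scales, and nothing is read from these separations either.

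**Figure D3:**
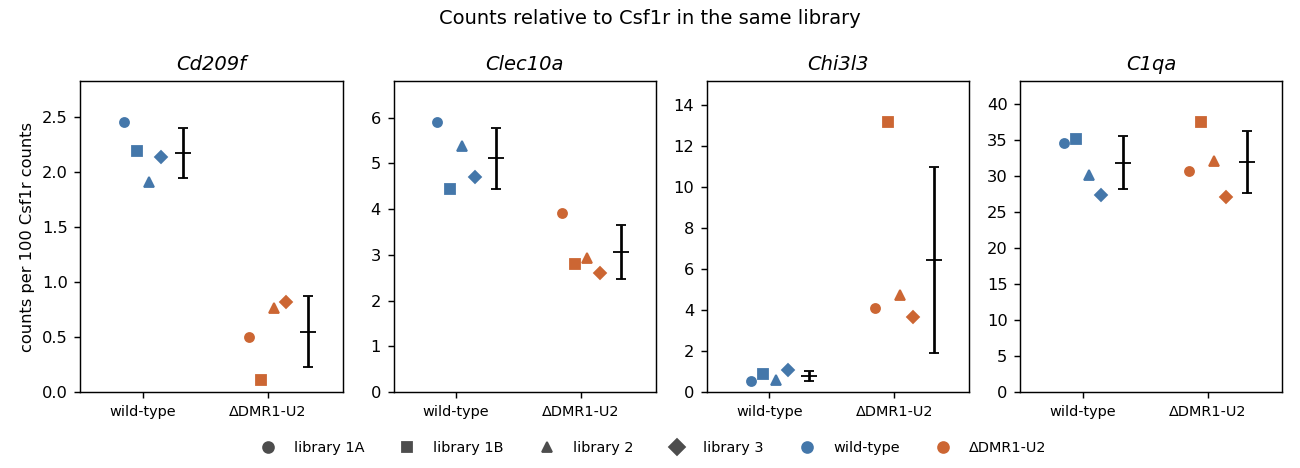
Counts of Cd209f, Clec10a, Chi3l3 and C1qa per 100 Csf1r counts of the same library, wild-type in blue and ΔDMR1-U2 in orange, with bars for the mean ± SD (n = 4). C1qa had a mean of 31.9 in both groups, and Cd209f was at 1.91 to 2.46 in wild-type and at most 0.816 in ΔDMR1-U2.

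The wider set of macrophage genes was examined in 5 lists of 108 genes, none of them among the 10, of which 85 were tested. Over all of them 1 rose, 1 fell and 83 were not called by edgeR, and 21 had an unadjusted p under 0.05. Among all genes tested, edgeR called 0.512% higher and 0.617% lower, and 21.3% had an unadjusted p under 0.05. DESeq2 called 7 of the listed genes, and it also called more over all genes, 930 in place of 172. The median log2 fold change of the 85 genes was 0.05, with 47 positive, against -0.0010 for all tested genes, of which 49.8% were positive. Leaving out 1 library moved this median between -0.03 and 0.08, below 0 without mutant library 1B or wild-type library 1A, and it was -0.03 without mutant libraries 1A and 1B together. Since whole muscle was sequenced, RNA of the listed genes from other cells is counted too. The values and medians of the lists therefore do not describe macrophages alone.

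Nos2, the inducible nitric oxide synthase of inflammatory macrophages, was the gene that fell. It had 66, 104, 92 and 91 counts in wild-type libraries 1A, 1B, 2 and 3 and 48, 35, 37 and 31 in the mutants. The groups did not overlap, at 2.01 ± 0.402 CPM in the mutants and 3.89 ± 0.349 CPM in wild-type (log2 fold change -0.95 ± 0.17 SE, adjusted p = 0.0341, edgeR). The adjusted p was 0.0276 to 0.111 when 1 library was left out and stayed under the threshold only without mutant library 1A or 2. Csf2rb2, a beta chain of the Il3 receptor, was the gene that rose, with 4.198 ± 0.357 CPM in wild-type and 7.52 ± 1.86 CPM in mutant libraries (log2 fold change 0.83 ± 0.17 SE, adjusted p = 0.0446, edgeR). Its adjusted p was 0.0303 to 0.144 when 1 library was left out, and under the threshold only without mutant library 1B or 2. Csf2rb, a near-identical gene with which it can share reads, had 0.82 (SE 0.21, adjusted p = 0.0747, edgeR), and 0.55 without mutant library 1B.

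Among macrophage receptors and adaptors, 24 were tested and 0 were called by edgeR, with 2 by DESeq2 and 7 with an unadjusted p under 0.05. Their median log2 fold change was -0.0022. The most abundant were Stab1, the scavenger receptor stabilin 1, at -0.23 (SE 0.13, adjusted p = 0.315), and Sirpa, an inhibitory receptor, at 0.11 (SE 0.08, adjusted p = 0.451, edgeR). Both genes called by DESeq2 lay in opposite directions, with log2 fold changes in the edgeR fit of 0.59 for Itgam, the integrin CD11b of macrophages and neutrophils, and -0.55 for Fcgr2b, the inhibitory antibody receptor.

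Lysosome and effector genes showed 0 of 23 called by edgeR, 1 by DESeq2 and 2 with an unadjusted p under 0.05, at a median of -0.03. Lgmn, a lysosomal protease, was at 107 ± 9.46 CPM in the mutants and 110 ± 11.2 CPM in wild-type (log2 fold change -0.03 ± 0.09 SE, adjusted p = 0.860, edgeR). Gas6, a ligand of the receptor Mertk, had -0.09 (SE 0.08, adjusted p = 0.537, edgeR). The gene called by DESeq2 was Lgals3, galectin 3, with 0.91 and an adjusted p of 0.117 in edgeR.

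The list of alternatively activated macrophage genes holds relatives of Cd209f, Clec10a and Chi3l3, of which only Mgl2 and Cd209c passed the filter. Of the 21 genes on the list 9 were tested, and 0 were called by edgeR or DESeq2, with 3 at an unadjusted p under 0.05 and a median of -0.15. Tgm2, a transglutaminase, had -0.25 (SE 0.10, adjusted p = 0.198), and Stat6, the transcription factor activated by Il4 and Il13, had 0.03 (SE 0.08, adjusted p = 0.849, edgeR). Arg1, arginase 1, had 0.84 (SE 0.24, adjusted p = 0.093, edgeR), the opposite sign to Mgl2. Il4, Il13, Il10 and Retnla were below the filter, with 8 counts at most.

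Growth factors and transcription factors had a median of 0.15 over 15 tested genes, of which 12 were positive, 1 was called by edgeR, 2 by DESeq2 and 3 had an unadjusted p under 0.05. Csf1, the ligand of Csf1r, was at 39.3 ± 2.09 CPM in the mutants and 40.7 ± 3.96 CPM in wild-type (log2 fold change -0.05 ± 0.08 SE, adjusted p = 0.743, edgeR). Il34, its other ligand, had 0.07 (SE 0.13, adjusted p = 0.778), and Sfpi1, which encodes PU.1, had 0.14 (SE 0.14, adjusted p = 0.594, edgeR). Monocyte and inflammatory genes, the list that holds Nos2, had a median of 0.20 over 14 tested genes. Of these 10 were positive, 1 was called by edgeR, 2 by DESeq2, 6 had an unadjusted p under 0.05 and 4 had groups that did not overlap. Their median was 0.10 without wild-type library 1A. Over the 85 tested genes of all 5 lists, 12 had groups that did not overlap, where 12.8% of all tested genes did.

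The medians of the 5 lists moved with the libraries used. Without mutant library 1B they were -0.06 for receptors, -0.06 for lysosome and effector genes and -0.06 for alternatively activated genes. They were 0.17 for monocyte and inflammatory genes and 0.09 for growth and transcription factors. Other libraries moved all but the last list further. Without wild-type library 1A the receptors were at -0.08 and the monocyte and inflammatory genes at 0.10. The lysosome and effector genes were at 0.06 without wild-type library 3, and the alternatively activated genes at -0.25 without mutant library 3. Without mutant libraries 1A and 1B together the 5 medians were -0.05, -0.08, -0.09, 0.13 and 0.02, in the order first given.

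**Figure D4:**
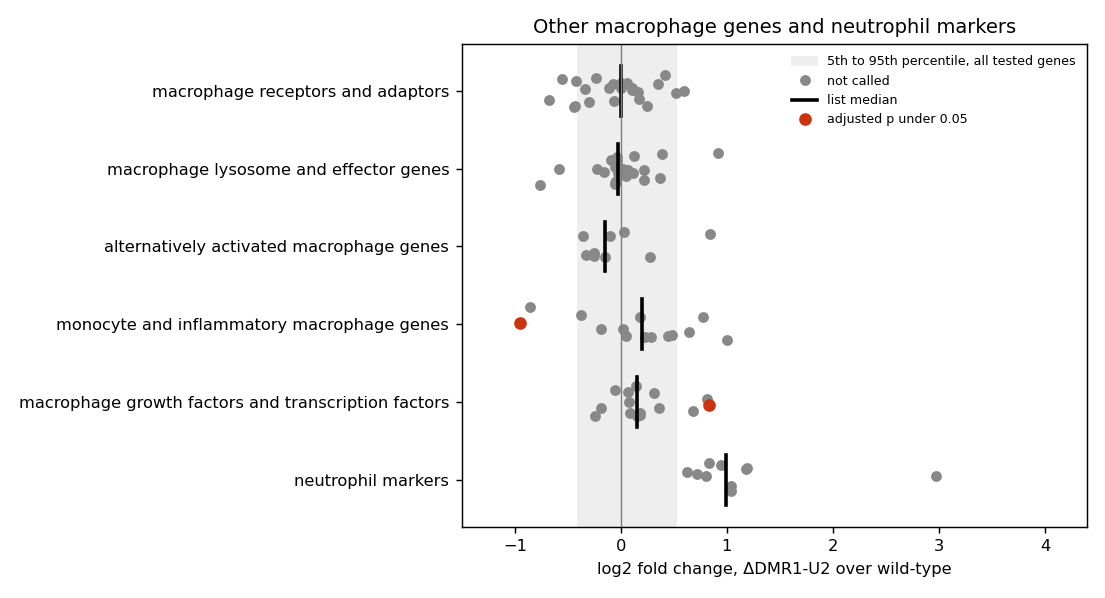
Log2 fold change of each tested gene in the 5 lists of other macrophage genes and in the list of neutrophil markers, red where the adjusted p was under 0.05, with black lines for the list medians; the grey band spans the 5th to 95th percentile of all tested genes. The macrophage lists have medians of -0.15 to 0.20, and the neutrophil list 0.99.

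Neutrophil markers bear on Chi3l3 and Lyz2, which neutrophils also express. Of 10 tested markers, 0 were called by edgeR, 1 by DESeq2, 1 by edgeR with no filter on low counts, and 7 had an unadjusted p under 0.05. All 10 had positive values, with a median log2 fold change of 0.99. The summed level was 25.8, 75.4, 36.7 and 116 CPM in wild-type libraries 1A, 1B, 2 and 3 and 200, 168, 113 and 99.7 CPM in the mutants. Wild-type library 3 thus overlapped the mutant libraries, and it was also the wild-type library with the most Chi3l3 and Lyz2. The sum holds Lcn2, which other cells also make, at 24.9 ± 25.9 CPM in the mutants and 3.12 ± 2.00 CPM in wild-type. Lcn2 had 203, 1175, 102 and 411 counts in mutant libraries 1A, 1B, 2 and 3, so it weighs most in library 1B. The sum without Lcn2 was not computed. The neutrophil median was 0.64 without mutant libraries 1A and 1B, and 0.69 to 1.39 when 1 library was left out.

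In wild-type, library 3 was the highest in both the neutrophil sum and Chi3l3. Chi3l3 was at 0.324, 0.337, 0.459 and 0.849 CPM in wild-type libraries 1A, 2, 1B and 3, from 5, 9, 12 and 20 counts. Libraries 1A, 2 and 1B had too few counts to be ordered. Among the mutants, library 1A had the highest neutrophil sum and library 1B the highest Chi3l3. Mutant libraries 1A, 2 and 3 were too close in Chi3l3 to be ordered, at 2.09, 2.21 and 2.22 CPM. Lcn2, a granule protein of neutrophils that other cells also make, had 203, 1175, 102 and 411 counts in the mutants and 25, 73, 54 and 142 in wild-type, again with library 1B highest. Its log2 fold change was 2.97 (SE 0.68, adjusted p = 0.0608, edgeR), and 1.96 without library 1B. The adjusted p was 0.0243 to 0.185 when 1 library was left out, and under the threshold only without mutant library 2. Library 1B also held the most adipocyte marker RNA, 602 CPM where the remaining 7 had 179 to 266. Over all libraries the median for the 6 tested adipocyte genes was 0.73 (log2), with 6 positive, of which 0 were called by edgeR or DESeq2 and 1 had an unadjusted p under 0.05. In mast cell markers 1 of 11 rose, Mrgprb1, a mast cell receptor, with a log2 fold change of 0.95 (adjusted p = 0.00752, edgeR). Of the 11 mast cell markers 10 were positive, 2 were called by DESeq2 and 6 had an unadjusted p under 0.05. In markers of lymphocytes, blood vessels, fibroblasts, muscle fibres, muscle progenitors and red cells edgeR called 0. In those 6 lists DESeq2 called 1 blood vessel and 1 muscle fibre marker, and 0 to 4 genes a list had an unadjusted p under 0.05. Without mutant library 1B the adipocyte median was -0.24, with 1 of 6 positive and 1 called by edgeR. In the same fit the neutrophil median was 0.97, with 10 of 10 positive, and the log2 fold change of Chi3l3 was 2.12. The parts of neutrophils and of adipose tissue in the Chi3l3 difference were not tested.

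**Figure D5:**
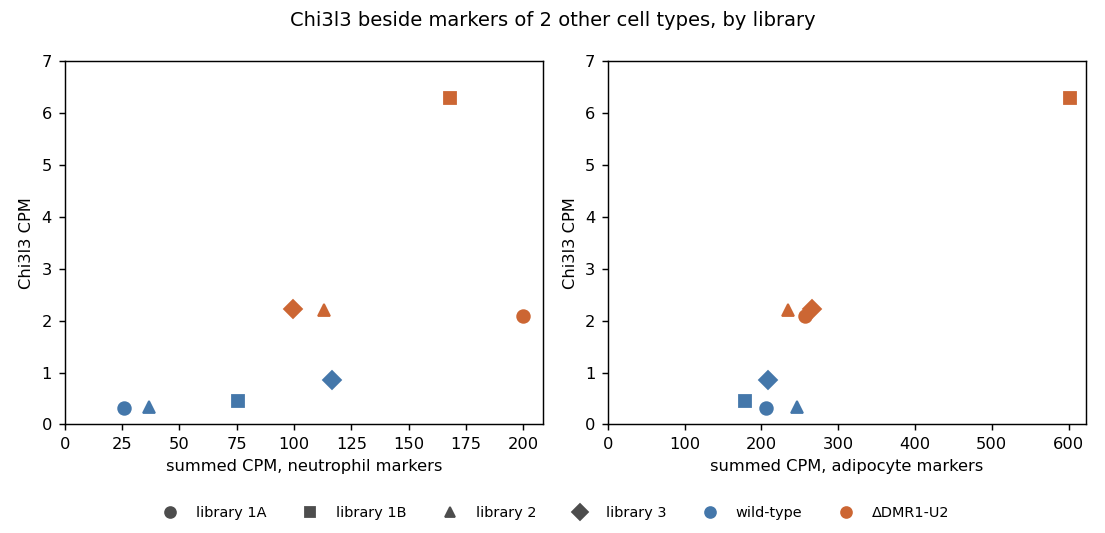
Chi3l3 CPM in each library against the summed CPM of neutrophil markers (left) and adipocyte markers (right), wild-type in blue and ΔDMR1-U2 in orange, with marker shapes for libraries 1A, 1B, 2 and 3. ΔDMR1-U2 library 1B is highest for Chi3l3 at 6.30 CPM and for adipocyte markers at 602 CPM, and library 1A is highest for neutrophil markers at 200 CPM. The neutrophil sum includes Lcn2, which other cells also make.

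The 10 genes did not share a single pattern over the libraries. Their mean centred log2 CPM was highest in wild-type library 3, at 0.40, and lowest in mutant library 2, at -0.26. Each gene is itself part of this mean, and Csf1r followed it most closely of the 10 (Pearson r = 0.90 over 8 libraries), then Mrc1 at 0.81 and C1qa at 0.74, while Clec10a had 0.50, Cd209f 0.39 and Chi3l3 -0.10. Outside the set, the most alike genes were Ptafr, the receptor for platelet-activating factor, at 0.96, Beta-s, a beta globin, at 0.96, and Sh3yl1 and 4933437F05Rik, both at 0.96. Plvap, a protein of endothelial fenestrae, had 0.95, Ctsa, lysosomal cathepsin A, 0.95, Per3, a clock gene, 0.94, and Slc25a37, a mitochondrial iron carrier, 0.93. Wild-type library 3 was also the highest in erythroid markers, at 92.0 CPM where the remaining 7 had 27.2 to 60.4.

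With the group means subtracted, so that only variation within genotypes counted, the most alike genes were Sh3yl1 at 0.99, Selplg, the ligand of P-selectin on white blood cells, at 0.98, and Ctsa at 0.97. Lipa, lysosomal acid lipase, and Osr2 followed, both at 0.97, with Ptafr at 0.96, Gpr111 at 0.95 and 4933437F05Rik at 0.95. On this scale Csf1r had 0.89, Lyz2 0.87, Mrc1 0.78 and Chi3l3 0.60, and Cd209f only 0.14. These values are descriptions over 8 libraries, and the genes outside the set are the highest of all tested genes.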

How the data were processed

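The table holds a raw read count per gene for each of the 8 samples, deposited by the authors with no normalization, per the file headers. It also holds the authors' mean normalised counts, a signal scaled by size factors, their fold change and log2 ratio of wild-type over ΔDMR1-U2, and their p-value for each gene, per the file headers. Per the submitters' processing notes, the build was mm10. The same notes name TopHat2 2.0.9 with Bowtie2 2.1.0, DESeq2 1.4.5, HTSeq 0.5.4p3 and FastQC 0.10.1. Settings, annotation and use of strand: not given in the sources used here. RNA was depleted of ribosomal RNA, per the labels' protocols.

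The count test was that of edgeR 4.0.16 under R 4.3.3 (filterByExpr with a minimum count of 10, trimmed mean of M values, quasi-likelihood test, group as the sole term). This kept 15241 genes, and p-values were adjusted by Benjamini-Hochberg over all of them, with calls under 0.05. The test was checked on simulated counts. CPM used the same scaled library sizes, and standard errors came from the test. For likeness, log2 CPM used a prior count of 2. Exon lengths, positions and transcript stretches came from GENCODE vM21, in which all 10 genes were found, 2 of them under a newer symbol.

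The genes and lists were chosen with earlier results of these data known. Besides the 10, the text names for each list of other macrophage genes up to 4 called genes with the largest change or else the 2 most abundant, and the 8 genes most like the set. Other genes were named after their values were seen. Alternatives were DESeq2 1.42.0, its size factors, no filter, leaving out libraries and a replicate block. Per the design text each group was 4 mice, with litters and the relation of libraries 1A and 1B not stated. The p-values set the group difference against the spread between these samples, which the test takes as independent. Intervals cover counting error only.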

Additional observations from a re-analysis of the deposited data

Results flagged for a closer look

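In each group of 4 libraries, the gap between an extreme value and its neighbour was set against the whole range and compared with Dixon's 95% critical value. Of 72 groups examined 8 passed it, where chance gives about 1 in 20. Chi3l3 in ΔDMR1-U2 had a ratio of 0.97, from library 1B at 6.30 CPM against 2.09 to 2.22 CPM in the other 3. Csf2rb2 in ΔDMR1-U2 had 0.893, also from library 1B.

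The remaining values are sums over lists. In ΔDMR1-U2 they were macrophage growth factors and transcription factors at 0.866 and adipocyte markers at 0.915, both from a high library 1B, and fibroblast markers at 0.849, from a low library 3. In wild-type they were dendritic cell markers at 0.861, from a low library 1B, lymphatic endothelial markers at 0.868, from a low library 3, and erythroid markers at 0.937, from a high library 3.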

How the results depend on the processing

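Size factors of the DESeq2 kind and no filter on low counts left the number of genes called, and those of other macrophage genes, other markers and the 10 genes, within 1.5 times their values. With no filter 1 neutrophil marker was called in place of 0, Lcn2 (adjusted p = 0.0427, edgeR). DESeq2 called 930 genes in place of 172, with 5 other macrophage genes higher, 2 lower and 6 markers of other cell types in place of 2. Without ΔDMR1-U2 libraries 1A and 1B the numbers were 16 genes, 0 other macrophage genes higher, 0 lower, 1 other marker and 0 of the 10 macrophage genes. With the replicate block they were 13, 0, 0, 1 and 0 in the same order, and Nos2 and Csf2rb2 had adjusted p values of 0.0936 and 0.0938 (edgeR). Libraries with the same number did not deviate together, with correlations of -0.216, -0.182, -0.0839 and -0.0802. Those with unlike numbers had correlations of -0.248 to 0.361. With so few libraries these values cannot settle whether the numbers mark shared litters or batches. When 1 library was left out, the numbers ran from 7 to 631 genes, 0 to 1 other macrophage genes higher, 0 to 1 lower, 1 to 6 other markers and 0 to 3 of the 10. In these fits Cd209f, Clec10a, Chi3l3, Mrc1, Csf1r, Emr1 and C1qa kept their direction, and Cd163, Lyve1 and Lyz2 each changed sign at least once. Low counts limit the precision of Cd209f (1 to 10 in each ΔDMR1-U2 library) and Chi3l3 (5 to 20 in each wild-type library).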
